A study of Homo sapiens with 2 samples.

Results

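Of the 21440 mTOR peaks deposited for MDA-MB-231 cells, 1400 were annotated as lying between genes, with no repeat and no CpG island named. They were chosen by the deposited annotation alone, as peaks whose class was intergenic and whose detailed annotation carried neither a repeat name nor a CpG island name, and they made up 6.53% of all peaks (exact Clopper-Pearson 95% interval 6.20 to 6.87%) and 15.0% of the 9340 intergenic peaks. The peaks come from chromatin immunoprecipitation and sequencing (ChIP-seq), in which cross-linked chromatin is enriched with an antibody, here one against mTOR from Abcam, and the enriched DNA is sequenced. MDA-MB-231 is an established line of human breast cancer cells of the triple-negative class, grown here in medium with serum, with no other treatment and no genetic change named in the labels. The data are 1 library of mTOR ChIP and 1 of input, unenriched chromatin, which served as the reference for peak calling. With 1 library no peak has a replicate, no test between conditions exists, and every interval below covers counting error only. The peak list carries no reads, so the depth is unknown, and the identity of the cells cannot be checked from it. A peak with no repeat name may still cover a repeat.

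mTOR is a kinase that couples nutrients and growth factors to protein synthesis and cell growth, mostly from the surface of lysosomes, and a part of it is found in the nucleus. It is known to act on RNA polymerase III, the enzyme that makes tRNAs, through the repressor MAF1. Sequence between genes holds enhancers, unannotated transcripts, small RNA genes such as those of tRNAs, and the repeat-rich flanks of the centromeres, where reads are hard to place.

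Some of these intergenic peaks lay over gene starts or tRNA genes of a later annotation. In RefSeq on GRCh38.p14, a later patch of the same assembly as the hg38 build of the files, 30 of the 1400 peaks (2.14%, 1.45 to 3.05%) overlapped a promoter window, the 250 bases before to 50 bases after a gene's start. The share was 10.8% over all peaks, which include those at annotated promoters, 0.300% (0.190 to 0.449%) over intergenic peaks with a repeat and 2.44% (1.73 to 3.33%) over intron peaks without one. These were 33 windows, 32 of them of long non-coding RNA (lncRNA) genes and 1 of the protein-coding gene PRRC2B, which the deposited annotation also named as nearest, at -36196 bp from another start. Of the 30 peaks, 3 also lay over a tRNA gene. The 4 windows below are among those under the highest-scoring peaks and show start sites or a tRNA gene under peaks labelled intergenic. In the first, capitals mark a tRNA gene. In the others, capitals mark the bases that lie inside the peak. All are written 5′ to 3′ on the minus strand, the strand of the lncRNA gene.
LOC124901292, chr6:27668524-27668823: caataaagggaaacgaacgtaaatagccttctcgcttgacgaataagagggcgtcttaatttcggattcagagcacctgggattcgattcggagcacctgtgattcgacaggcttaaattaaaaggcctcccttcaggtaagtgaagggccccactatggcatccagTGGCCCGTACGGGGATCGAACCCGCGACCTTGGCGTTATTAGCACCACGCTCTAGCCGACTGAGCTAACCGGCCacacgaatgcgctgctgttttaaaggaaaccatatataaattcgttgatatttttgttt
LINC02739, chr11:59566081-59566380: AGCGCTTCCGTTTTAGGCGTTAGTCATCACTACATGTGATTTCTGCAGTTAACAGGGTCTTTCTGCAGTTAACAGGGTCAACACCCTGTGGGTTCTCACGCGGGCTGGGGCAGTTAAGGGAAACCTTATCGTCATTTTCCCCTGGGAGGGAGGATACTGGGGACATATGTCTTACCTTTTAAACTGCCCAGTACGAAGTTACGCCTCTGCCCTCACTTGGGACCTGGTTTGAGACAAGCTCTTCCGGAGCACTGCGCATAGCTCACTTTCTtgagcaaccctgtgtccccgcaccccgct
LOC105378629, chr1:32351346-32351645: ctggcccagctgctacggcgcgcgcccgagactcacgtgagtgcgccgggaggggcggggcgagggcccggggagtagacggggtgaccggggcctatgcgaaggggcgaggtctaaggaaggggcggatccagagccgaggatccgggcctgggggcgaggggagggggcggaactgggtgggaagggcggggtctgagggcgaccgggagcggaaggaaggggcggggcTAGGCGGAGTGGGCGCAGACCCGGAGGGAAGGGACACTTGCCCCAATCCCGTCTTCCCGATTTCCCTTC
LOC107985440, chr20:17850341-17850640: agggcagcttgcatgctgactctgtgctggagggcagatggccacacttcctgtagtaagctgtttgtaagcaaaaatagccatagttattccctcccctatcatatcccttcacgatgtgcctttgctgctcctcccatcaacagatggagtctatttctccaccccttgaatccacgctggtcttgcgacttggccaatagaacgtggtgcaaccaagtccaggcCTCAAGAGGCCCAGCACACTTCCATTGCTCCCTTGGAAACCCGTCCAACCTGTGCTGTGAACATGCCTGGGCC

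The LOC124901292 window lay wholly inside a peak of score 158 that the deposited annotation placed at -25221 bp from LINC01012, a negative sign meaning upstream. Its capitals are the 74 bases of TRI-AAT8-1, an isoleucine tRNA gene (chromosome 6, 27668583 to 27668656), which lies on these letters in reverse. They hold 1 match to GGTTCGA, the core of the B box, the internal promoter element of tRNA genes, searched on both strands. Of all 35114 RefSeq promoter windows of the same length, 0.860% hold that core. The LINC02739 window had 271 of its 300 bases in a peak of score 116 and held 1 match each to CCGGAA, a core bound by ETS factors (17.2% of all windows), and to ACTACA, part of the motif bound by RONIN and ZNF143 (8.46% of all windows). That peak also covered a tRNA gene, TRF-GAA2-1 (chromosome 11, 59566380 to 59566452), at the edge of the window. The LOC105378629 window reached into a peak of score 214 with 69 bases, none of which held a searched motif. Its other bases held 1 E-box, CACGTG, and 5 matches to the GC box GGGCGG, found in 7.26% and 45.0% of all windows. The LOC107985440 window had 73 bases in a peak of score 137 placed 112969 bp from SNORD17, a small nucleolar RNA gene. Over all 33 windows the median GC content was 58.0%, from 39.0 to 83.7%, beside 58.7% for all windows. The E-box was in 4 of them, the AP-1 motif TGANTCA in 6 (7.71% of all windows), the GC box in 13, CCGGAA in 9, ACTACA in 3 and GGTTCGA in 2. These counts are of whole windows, of which 6 lay fully in a peak, so some matches lie outside the peaks. Some windows share bases, and a site there counts more than once. Motifs were searched on both strands, and each match describes the letters only.

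The first comparison asked how the peaks differ with their distance from the nearest start site. Of the 1400, 329 (23.5%, 21.3 to 25.8%) had an absolute distance below 10 kb, 596 (42.6%, 40.0 to 45.2%) lay at 10 to 50 kb, and 475 (33.9%, 31.4 to 36.5%) lay above 50 kb. Intergenic peaks over a repeat, 7676 in number, lay farther out, with 14.8%, 38.1% and 47.1% in these classes. The distances ran from 1010 bp, upstream of RAN, which encodes a GTPase of nuclear transport, to 3663420 bp from EMBP1. Upstream of the start lay 81.8% of the peaks below 10 kb (77.2 to 85.8%), 60.4% at 10 to 50 kb and 47.2% above 50 kb. An intergenic label leaves out peaks inside the gene itself, which lie downstream of its start, and repeat peaks with the same label had 86.7%, 67.1% and 50.5%. Just below 10 kb, the peaks nearest CCDC54, LRCOL1 and C11orf91 scored 69, 40 and 69, and just above it those nearest DNAJB1, LOC100506679 and CD22 scored 21, 35 and 44. Just below 50 kb, those nearest LINC02012, SLC4A7 and LOC103344931 scored 261, 132 and 69, and just above it those nearest FAM102B, TBC1D21 and COL24A1 scored 99, 41 and 75.

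Typical scores hardly differed between the 3 classes, but scores of 200 or more were most frequent above 50 kb from the nearest deposited start. The score is the authors' own whole number. No source used here gives its scale, and it serves only to rank peaks within this list. Its median was 53 below 10 kb (95% interval of the median 49 to 61), 59 at 10 to 50 kb (53 to 61) and 61 above 50 kb (56 to 68), so these intervals overlap. The middle 50% of scores ran from 35 to 106, from 37 to 103 and from 37 to 118.5. A score of 200 or more, reached by 10.0% of all peaks in the table, was found in 31 peaks below 10 kb (9.42%, 6.49 to 13.1%), 62 at 10 to 50 kb (10.4%, 8.07 to 13.1%) and 79 above 50 kb (16.6%, 13.4 to 20.3%). Intergenic peaks over a repeat had 12.1%, 12.8% and 8.18% (7.31 to 9.12%) at such scores, with the lowest share in the farthest class. Intron peaks without a repeat had 7.87%, 8.50% and 10.4%. The interval of the farthest class lay above that of repeat peaks at the same distance and overlapped that of intron peaks (7.15 to 14.4%). Without the clusters of 4 or more peaks described below, an alternative chosen after the data were seen, the farthest class had 9.65% (7.01 to 12.9%), and its interval overlapped that of the repeat peaks too.

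**Figure D1:**
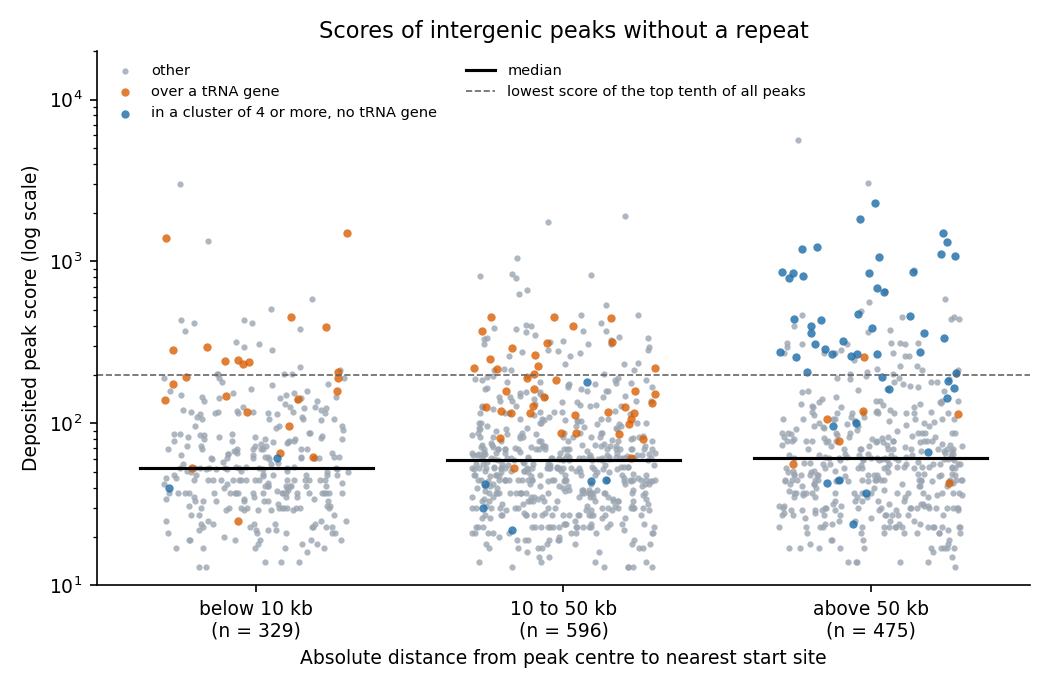
Deposited score (log axis) of each of the 1400 intergenic peaks without a repeat, in 3 classes of absolute distance to the nearest start site, with the median of each class as a black line and the score of 200 as a dashed line. The medians lie between 53 and 61, peaks over tRNA genes stand high in the nearer classes, and peaks in clusters of 4 or more stand high above 50 kb.

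The highest-scoring peaks of each class lay in different surroundings. Below 10 kb the first was a peak of score 2994, 4298 bp upstream of HIF1A-AS3, an antisense transcript of the hypoxia factor gene HIF1A (chromosome 14, 61754936 to 61755855). Next came 2 peaks over tRNA genes, with 1499 at TRR-CCT3-1 near CASP16P (chromosome 16, 3151562 to 3153259) and 1396 at TRS-CGA1-1 and TRT-AGT5-1 near MIR6883 (chromosome 17, 8138727 to 8139811). LIN28A, which encodes an RNA-binding protein that blocks let-7 maturation, had a peak of 1336 at -1683 bp. The others were 585 near PTPRH, a receptor tyrosine phosphatase gene, where RefSeq now has LOC124904771, and 509 near KDM6B, which encodes a histone H3 lysine 27 demethylase. That last peak is inside the KDM6B span of the later annotation.

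At 10 to 50 kb the 6 leading peaks lay near 6 different genes. The first, with 1902, lay 44906 bp from LINC02182 and inside the later span of the zinc finger gene ZNF469 (chromosome 16, 88238768 to 88239606). NRP1, which encodes the semaphorin and VEGF co-receptor neuropilin-1, had one of 1749 at -31685 bp (chromosome 10, 33365834 to 33367346). The peaks nearest CEACAM7, LINC02783, SNX29P2 and HAX1 scored 1048, 836, 824 and 808. Widths of these 6 ran from 839 to 1513 bp. Above 50 kb the 6 leading peaks, on chromosomes 1 and 16, had pseudogenes as nearest genes, at distances from 178579 to 3663420 bp. They were 2 nearest EMBP1, with 5636 and 3070, 2 nearest LSP1P5, with 2307 and 1505, 1 nearest CCNYL3 with 1830 and 1 nearest ANKRD26P1 with 1326. Their widths were 521 and 383 bp at EMBP1, 373 and 256 bp at LSP1P5, 834 bp at CCNYL3 and 1653 bp at ANKRD26P1.

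Wide peaks formed a small part of every class. The median width was 415 bp below 10 kb (391 to 459), 439.5 bp at 10 to 50 kb (417 to 466) and 394 bp above 50 kb (379 to 418), and all 3 classes began at 248 bp. Peaks of 1000 bp or more made up 6.99%, 9.73% and 7.58%. The share was similar among intron peaks without a repeat, with 7.41%, 7.52% and 8.03% (5.21 to 11.7%). Among repeat peaks above 50 kb this share was 3.10% (2.56 to 3.71%), below the interval of intergenic peaks without a repeat name at that distance (5.36 to 10.3%). The widest peaks were one of 2841 bp near MIR137HG, the host gene of the neuronal microRNA miR-137, with a score of 558, one of 2792 bp near TRIM29 with 387 and one of 2322 bp near LOC284454 with 414. Score and width rose together across the 1400 peaks (Spearman's rho 0.56, a description across sites of 1 library). For the 58 peaks in clusters of 4 or more without a tRNA gene rho was 0.13.

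**Figure D2:**
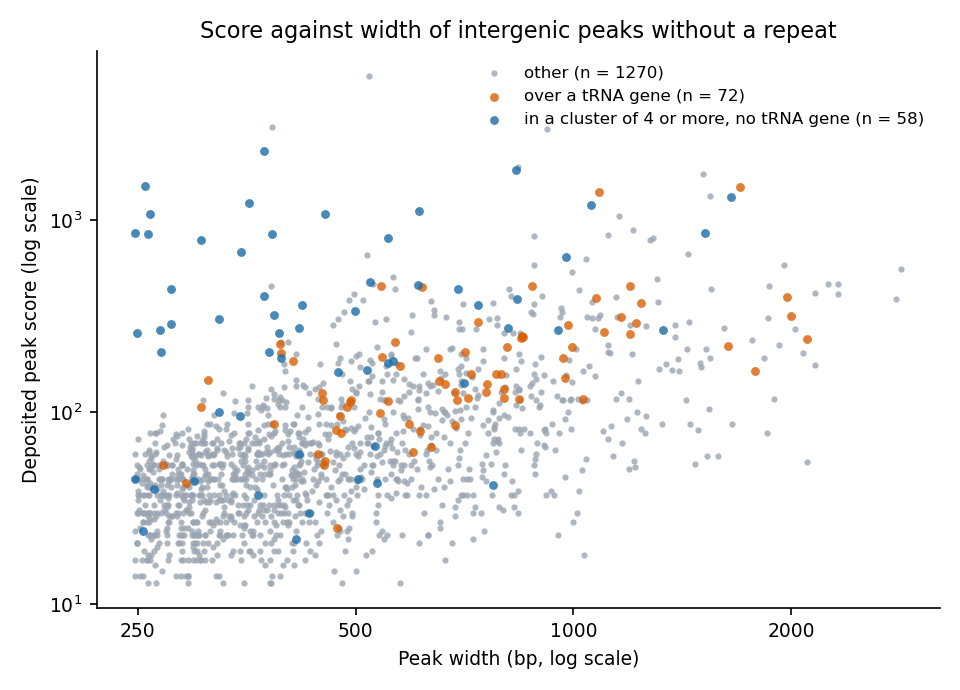
Score against width, both on log axes, for the 1400 peaks, coloured by whether a peak overlaps a tRNA gene, lies in a cluster of 4 or more, or neither. The 72 peaks over tRNA genes follow the rise of score with width, and many of the clustered peaks combine scores above 200 with widths below 500 bp.

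Peaks over tRNA genes lay mostly in the nearer classes. RefSeq lists 443 tRNA genes under these chromosome names. Some at low positions on chromosomes 1 and 6 are listed out of order and may belong to separate scaffolds. Of the 1400 peaks, 72 (5.14%, 4.05 to 6.43%) overlapped at least 1 tRNA gene by at least 1 base, against 0.910% of all peaks in the table. The share was 7.29% below 10 kb (24 peaks, 4.73 to 10.7%), 6.88% at 10 to 50 kb (41 peaks, 4.98 to 9.22%) and 1.47% above 50 kb (7 peaks, 0.594 to 3.01%). Repeat peaks had 1.41%, 0.787% and 0.304%, and intron peaks without a repeat 1.08%, 0.490% and 0 of 299, for which the exact interval reaches 1.23%. The choice of peaks is not independent of this overlap, because it leaves out peaks with a repeat label and 44 of all 195 peaks over tRNA genes carried a tRNA repeat label, each with its centre inside the gene. The 72 therefore describe peaks centred beside a tRNA gene, at a median of 79 bp from it and from 1 to 490 bp. Over all 9340 intergenic peaks, whatever their repeat label, the share over tRNA genes was 2.74% (1.99 to 3.68%), 2.03% (1.60 to 2.54%) and 0.484% (0.296 to 0.747%) in the 3 classes. In all 240 of the 443 tRNA genes lay under some peak (54.2%, 49.4 to 58.9%), and 92 of them under one of the 1400.

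Peaks over tRNA genes scored higher than most other intergenic peaks without a repeat name, though not higher than those in clusters. Their median was 154.5 (126 to 194), with scores from 25 to 1499, while 1270 peaks over no tRNA gene and in no cluster of 4 or more had a median of 53 (52 to 56), and the 58 in clusters of 4 or more without a tRNA gene one of 281.5 (207 to 402). Of the 72, 27 (37.5%, 26.4 to 49.7%) had a score of 200 or more, against 8.43% (6.96 to 10.1%) of those 1270 and 65.5% (51.9 to 77.5%) of those 58. They were also wider, with a median of 688 bp against 410 and 417.5 bp. Among peaks below 1000 bp the tRNA share was 4.44% (57 of 1283), and among those of 1000 bp or more it was 12.8% (15 of 117). The tRNA peaks gathered on chromosome 6, which held 38 of 72, and 37 of these lay between 26 and 29 Mb, in and around the histone gene cluster. There the peaks scored 454 at the arginine tRNA gene TRR-CCG1-2 near HCG14, 450 at the alanine gene TRA-TGC2-1 near LINC00533, and 395 at TRL-CAA1-2 and TRQ-CTG1-3, genes for leucine and glutamine tRNAs, near LINC01556. On chromosome 14, the proline gene TRP-TGG1-1 near OR6S1 had 456, and TRP-AGG2-6 with TRT-TGT3-1 near RNASE12 had 453. On chromosome 11, a peak of 400 covered TRF-GAA1-3 and TRK-TTT5-1 (59555789 to 59557764), and 17 of the 72 peaks covered 2 or more tRNA genes. In such places the deposited nearest gene, for example an olfactory receptor or a microRNA, was the nearest annotated start and not the tRNA gene under the peak.

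**Figure D3:**
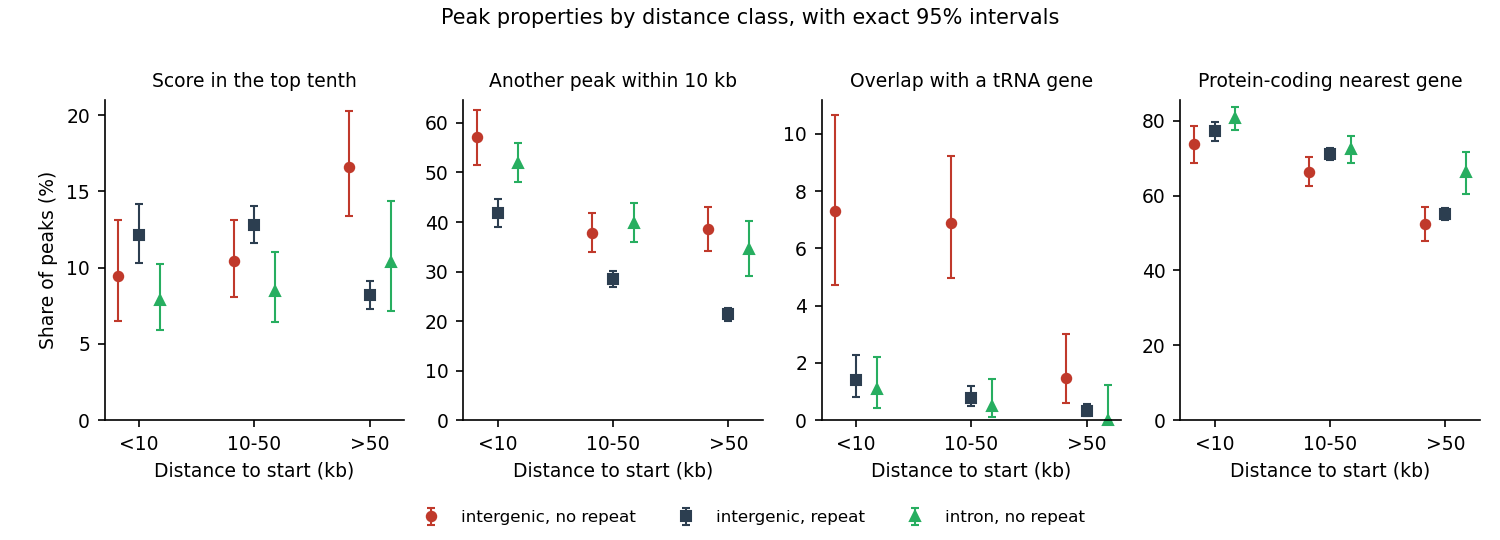
Share of peaks (%) in each distance class with a score of 200 or more, another peak within 10 kb, overlap with a tRNA gene and a protein-coding nearest gene, for the 1400 intergenic peaks without a repeat, 7676 intergenic peaks over a repeat and 1559 intron peaks without a repeat. Bars are exact 95% intervals for counting error, and the tRNA shares of 7.29% and 6.88% stand above those of both other kinds.

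The second comparison concerned clustering. Another peak of any kind lay within 10 kb, centre to centre, for 596 of the 1400 (42.6%, 40.0 to 45.2%), against 31.5% of all peaks. The share was 57.1% below 10 kb (51.6 to 62.6%), 37.8% at 10 to 50 kb (33.8 to 41.8%) and 38.5% above 50 kb (34.1 to 43.1%). Each is above the share of repeat peaks at the same distance, 41.8%, 28.5% and 21.3%, without overlap of the intervals. Intron peaks without a repeat were close, with 52.0%, 39.9% and 34.4%. When only other members of the 1400 counted as neighbours the order changed, to 12.8%, 14.9% and 23.6% (19.8 to 27.7%). Below 10 kb, most peaks with a neighbour thus had only neighbours of another kind. The share above 50 kb includes the 50 peaks of the 7 distant clusters described below, which have such neighbours by definition. It was not computed without them. Chained at 10 kb, the 1400 peaks formed 1248 groups, of which 1157 were single peaks (82.6% of the peaks), 64 were pairs, 16 had 3 members and 11 had 4 or more.

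Of the 11 clusters of 4 or more, 7 lay wholly above 50 kb from a start and held 50 peaks. The largest, with 12 peaks on chromosome 2 (90380664 to 90398791) nearest LOC101927050, had scores from 166 to 477 with a median of 271.5. Chromosome 1 had 3 of the 7, all nearest LSP1P5, with 10, 5 and 4 peaks (143232766 to 143267358, 143213091 to 143222803 and 143192835 to 143202896) and median scores of 173.5, 849 and 502. Chromosome 10 had 8 peaks (42067176 to 42084000) nearest LOC441666 with a median of 322.5. Chromosome 16 had 7 peaks (46386327 to 46401569) nearest ANKRD26P1 with scores from 810 to 1326, every one of them above 200, and 4 (34582919 to 34595777) nearest CCNYL3 with scores from 260 to 1830. These places flank the centromeres of chromosomes 1, 2, 10 and 16, and the nearest start was 155396 bp away or more by the deposited distances. For LSP1P5 and CCNYL3 those distances do not match the RefSeq position of the gene, which lies 1448721 and 434572 bp from the nearest of their peaks, against deposited minimums of 155396 and 201855 bp. Their peaks stay above 50 kb from these genes either way. No repeat-labelled or other peak fell within the span of 6 of these 7 clusters, and the CCNYL3 span held 2. A further group of 3 peaks on chromosome 1 (125178896 to 125182723), 3660048 bp or more from its nearest gene EMBP1, had scores of 467, 3070 and 5636. The other 4 clusters lay closer to a start. Those on chromosome 6 (26305190 to 26331742, 5 peaks) and chromosome 11 (59550253 to 59566602, 4 peaks) consisted of peaks over tRNA genes, with medians of 106 and 146, and those nearest MIR3188 and LSM4 and nearest MIR6763 and LRCOL1 had medians of 43 and 42.5.

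**Figure D4:**
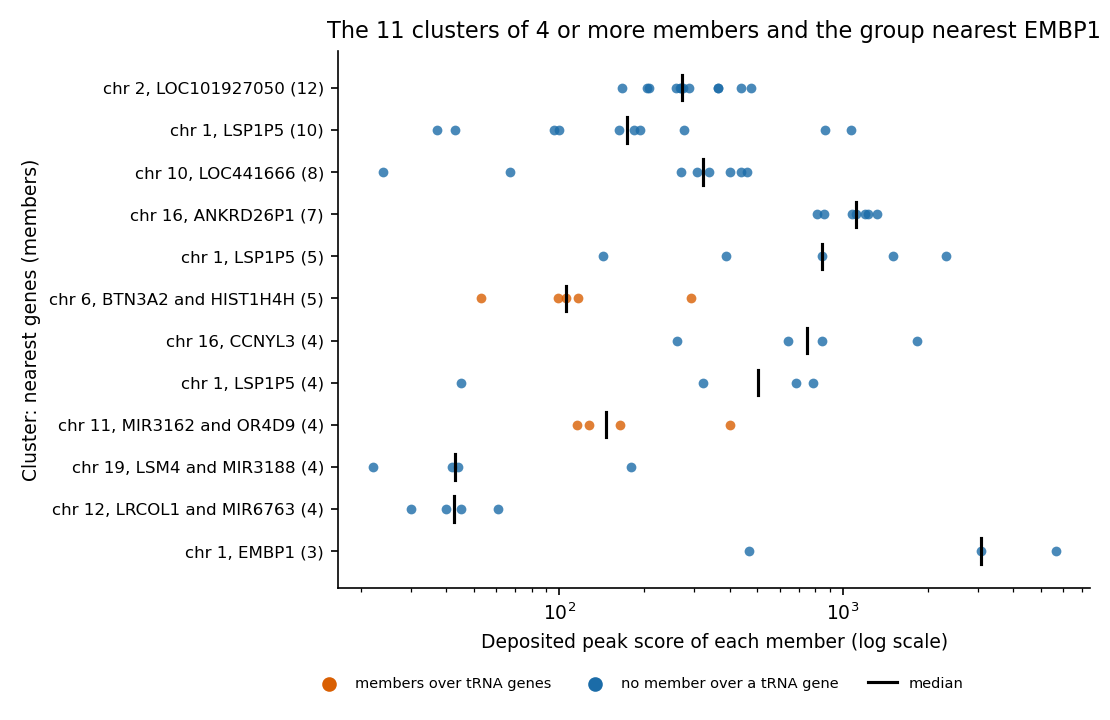
Deposited score (log axis) of each peak in the 11 clusters of 4 or more intergenic peaks without a repeat and in the group of 3 nearest EMBP1, added for its high scores, named by chromosome and nearest genes, with the number of peaks in brackets and the median as a black line. The 7 peaks nearest ANKRD26P1 all lie between 810 and 1326, while the clusters nearest MIR3188 and MIR6763 have medians of 43 and 42.5.

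Many of the high scores of the farthest class lay in these clusters. Of the 79 peaks above 50 kb with a score of 200 or more, 38 (48.1%, 36.7 to 59.6%) were in the 7 distant clusters, 1 was over a tRNA gene and 40 were elsewhere. Their median width was 404.5 bp, against 863 bp for those 40. In the nearer classes the make-up differed. Of the 31 such peaks below 10 kb, 11 (35.5%) were over tRNA genes, and of the 62 at 10 to 50 kb, 15 (24.2%) were. Another setting, also chosen after the data were seen, kept only the highest-scoring peak of each cluster, which itself favours high scores. The shares of such scores were then 9.68% below 10 kb, 11.3% at 10 to 50 kb and 11.3% above 50 kb. In the 1270 remaining peaks, clusters and tRNA genes set aside, the shares were 6.60%, 8.56% and 9.57% with overlapping intervals. No source used here says how reads that align to several places were treated.

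The third comparison was of the nearest genes. In 888 of the 1400 peaks (63.4%, 60.8 to 66.0%) the nearest start belonged to a protein-coding gene, falling from 73.9% below 10 kb (68.8 to 78.5%) through 66.4% (62.5 to 70.2%) to 52.4% above 50 kb (47.8 to 57.0%). Repeat peaks gave 77.2%, 71.2% and 55.2%, and all peaks 82.1%, 72.8% and 60.3%. The fall with distance was thus not particular to these peaks. Non-coding RNA genes made up 21.9%, 29.4% and 33.5%. Their shares also rose with distance over all peaks, with 14.3%, 23.2% and 34.4%, and over repeat peaks, with 17.6%, 24.1% and 38.9%. Pseudogenes made up 3.65%, 3.36% and 13.1% (10.2 to 16.4%). Over all peaks they made up 2.63%, 3.24% and 4.49%, and over repeat peaks 4.22%, 4.01% and 5.42%. Without the clusters of 4 or more, the protein-coding share above 50 kb was 58.6% and the pseudogene shares were 3.67%, 3.44% and 2.82% (1.47 to 4.88%), so the higher pseudogene share above 50 kb was no longer seen. In the later RefSeq annotation 352 of the 1400 centres (25.1%, 22.9 to 27.5%) lay inside a gene span, against 21.4% (20.5 to 22.3%) of intergenic peaks over a repeat and 59.6% of all peaks, which include those annotated inside genes. Of the 352, 216 were in an lncRNA gene and 99 in a protein-coding gene. The share inside any gene was 24.6%, 27.9% and 22.1% in the 3 classes. The share inside a protein-coding gene fell with distance, from 10.3% (7.26 to 14.1%) through 8.05% to 3.58% (2.1 to 5.67%), and repeat peaks had 8.80%, 6.92% and 3.10%.

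Most genes were nearest to a single peak. The 1395 peaks with a named gene had 1112 different ones, of which 930 had 1 peak and 17 had 4 or more. The pseudogenes of the distant clusters led, with 19 peaks nearest LSP1P5, 12 nearest LOC101927050, 8 nearest LOC441666 and 7 nearest ANKRD26P1. LINC02182 had 6, from 17 to 1902, of which 5 scored 118 or less. LINC00533, LINC01012 and ZNF184, neighbours on chromosome 6, had 5, 5 and 4 peaks, all 14 over tRNA genes, and CCNYL3 had 4. Other genes with 4 peaks, named after their values were seen, included TMEM170B, DUSP1, LINC01756, PHLDA1, NFIC and LINC01234. At DUSP1, which encodes a phosphatase that switches off MAP kinases, scores were 128, 101, 85 and 22, with 3 of the peaks between -24712 and -19048 bp. At NFIC, a nuclear factor I gene, they were 85, 51, 45 and 23, and at PHLDA1, a growth factor response gene, 112, 26, 23 and 21. None of these 6 genes with 4 peaks had one over a tRNA gene.

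Gene groups were described by the share of their genes that were nearest to one of the 1400 peaks, beside 3.71% of all 19970 protein-coding genes. No test was made. Senescence regulators and secretory factors had 9 of 44 (20.5%, 9.80 to 35.3%), among them GDF15, a stress cytokine gene, with a peak of 145 at -11694 bp, IGFBP3 with 101 at -61021 bp and PLAU, the urokinase gene, with 75 at -16330 bp. AP-1 factor genes had 3 of 19, JUN with 147 at 28341 bp, FOSB with 133 at 10924 bp, a peak over a tRNA gene, and FOSL2 with 51 at -33158 bp. Genes of the mTOR pathway had 5 of 60 (8.33%, 2.76 to 18.4%), among them DDIT4, an inhibitor of mTORC1, with 66 at -13069 bp and PIK3R1 with 41 at 141699 bp. Factor genes of the SOX, FOX, HOX and TBX families had 9 of 116 (7.76%), with FOXK2 at 373, a peak over a tRNA gene, FOXQ1 at 159 and FOXL1 at 144. Luminal breast markers had 2 of 20, TFF1 with 191 and SPDEF with 45. Over all peaks in the table, 41.7% of all protein-coding genes were nearest to a peak. That share was 59.1% for the senescence group, 63.2% for AP-1 factor genes and 56.7% for genes of the mTOR pathway. It was 34.5% for the SOX, FOX, HOX and TBX families, and luminal breast markers had 10 of 20.

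Cytosolic ribosomal protein genes had 2 of 87 (2.30%, 0.280 to 8.06%), RPL26 with a peak of 116 at -1717 bp and RPS9 with one of 33 at 7810 bp. Mitochondrial ribosomal protein genes had 4 of 77 (5.19%, 1.43 to 12.8%), with MRPS22 at 64 and MRPL33 at 23. RONIN, HCF-1 and PML genes had 0 of 20 (0 to 16.8%), and basal and mesenchymal breast markers 0 of 30 (0 to 11.6%). Both intervals include the 3.71% of all protein-coding genes. Over all peaks in the table, 10 of these 20 genes and 12 of these 30 were nearest to a peak. ZNF zinc finger genes had 25 of 509 (4.91%, 3.20 to 7.17%), with ZNF23 at 437, ZNF329 at 374 and ZNF239 at 349. Olfactory receptor genes had 9 of 390 (2.31%), and the 3 top-scoring of these, nearest OR6S1, OR1F1 and OR4D9 with 456, 191 and 164, were all peaks over tRNA genes. Keratin-associated protein genes had 1 of 94, KRTAP5-5 with 37. Over all peaks in the table, 48.3% of cytosolic and 54.5% of mitochondrial ribosomal protein genes were nearest to a peak. That share was 64.4% for ZNF genes, 16.2% for olfactory receptor genes and 13.8% for keratin-associated protein genes. For all protein-coding genes it was 41.7%. Among non-coding genes, those named LINC had 147 of 2301 (6.39%, 5.42 to 7.47%), against 1.38% of all 18177 lncRNA genes, and microRNA genes had 74 of 1998 (3.70%), with the highest score, 1396, in the peak near MIR6883 that covered 2 tRNA genes.

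The peaks were spread over 22 autosomes and the X chromosome. Chromosome 1 had 126 and chromosome 19, which is dense in genes, 116, of which 53 were below 10 kb, 61 at 10 to 50 kb and 2 above 50 kb. Chromosome 16 stood out for the share of its own peaks, with 92 of 867 (10.6%), while chromosome 4 had 23 of 847 (2.72%). The X chromosome had 4 of its 143 peaks.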

How the data were processed

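Per the submitters' processing notes, the tools were HOMER 4.11.1, MACS2 2.1.1.20160309, Picard 2.0.1, BWA 0.7.12 and Trimmomatic 0.36, listed with no role or setting, and the build was hg38. The deposited peak score is a whole number of unstated scale. The deposited distance is signed, in bp, with upstream negative. The authors called peaks once, on 1 ChIP library with the input as reference. The input library itself was not analysed here.

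Widths count both end positions. High scores are those of at least 200, the lowest score among the 2144 highest, which ties bring to 2147. Distances between peaks are between centres, and clusters chain members at most 10 kb apart. Gene spans, tRNA genes and promoter sequences are RefSeq's on GRCh38.p14, matched to the peaks by position. Gene identifiers matched for 1394 of the 1400 peaks. Intervals are exact Clopper-Pearson for shares and binomial order statistics for medians, at 95%. Interval and overlap functions were tested on simulated data.

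Named peaks are the 6 highest-scoring of each distance class, the 3 widest, the nearest and farthest, 3 on either side of each limit, the 5 largest clusters, the 10 genes nearest most peaks, the top 3 of each gene list and the top 6 over RefSeq promoter windows. Other clusters, the tRNA peaks and the genes with 4 peaks were added after values were seen. A few items that this rule names are not reported here. The members and lists were chosen with earlier results of these data known. The scripts ran in Python 3.11.15 with matplotlib 3.10.9, scipy 1.17.1, pandas 2.3.3 and numpy 2.4.6.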

Additional observations from a re-analysis of the deposited data

How the results depend on the processing

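No paired analysis was possible because there is 1 library. Of 177 values under other settings, 127 stayed within the 95% interval of the reported one and 50 moved. Some moves were fixed by the setting, because a score cut, another neighbour limit or other distance limits redefine the value. The tally is therefore no measure of stability. Classes are in the order below 10 kb, 10 to 50 kb and above 50 kb. High scores are those of 200 or more. Within the 50% of all peaks with the highest scores, the shares with high scores were 20.5%, 21.5% and 32.9%, the median scores 116, 106 and 118, the median widths 567, 618.5 and 534.5 bp, and the shares with a neighbour in the 2 nearer classes 41.1% and 30.2%. The top 1 in 20 by score held 4.86%, 6.38% and 10.5%.

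With limits of 5 kb and 100 kb the classes held 12.5%, 69.8% and 17.7%, the nearest had a median score of 48, and the farthest had a high-score share of 22.2%, a neighbour in 46.4% and a protein-coding nearest gene in 41.1%. With the distance to the nearest end of any RefSeq gene the classes held 61.2%, 30.4% and 8.43% and the protein-coding shares were 68.1%, 60% and 41.5%. There the nearest class had a neighbour in 44.2%, the middle class a median width of 399 bp, and the farthest a high-score share of 28.0%, a median score of 81.5 and a neighbour in 55.9%. Without chromosome 19 the farthest class held 36.8%.

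A neighbour lay within 2 kb for 20.4%, 10.9% and 17.3% and within 50 kb for 86.9%, 81.4% and 71.6%. With members alone as neighbours the shares were 12.8%, 14.9% and 23.6%. Leaving out peaks inside a RefSeq gene, leaving out peaks within 1 kb of another and the RefSeq gene types moved no value. A further 3 settings were chosen after the data were seen. Without clusters of 4 or more the farthest class had a high-score share of 9.65%, a neighbour in 31.3%, a protein-coding nearest gene in 58.6% and a pseudogene in 2.82%. With the highest-scoring peak of each cluster the first 3 of these were 11.3%, 26.6% and 58.0%, and the middle class had a neighbour in 31.3%. Leaving out peaks over tRNA genes moved no value. Depth is unknown, so absent peaks show no absence of binding.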
